A study of Homo sapiens with 6 samples.

Results

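The expression of 10 genes for secreted or surface mediators of inflammation was followed through the RNA-seq libraries: the interleukins IL1A, IL1B, IL6, IL11, IL15, IL18 and IL24, the cytokines LIF and TNF, and the surface receptor TREM1. They were taken by symbol from a table of 57820 genes, and each of the 10 symbols matched 1 row. The cells were M14, a human melanoma cell line that stably carried 1 doxycycline-inducible shRNA against STAG2, a subunit of the cohesin complex that helps to fold the genome into loops. KD cells received doxycycline (5 µg/ml in the methods) for 5 days, and WT cells carried the same shRNA construct without doxycycline, with 3 libraries per condition. No library came from cells given doxycycline without the shRNA, so knockdown and drug cannot be told apart. The series asks how the loss of STAG2 alters genome structure and gene activity in melanoma, and the comparison here is that of the cytokine genes in KD against WT.

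These mediators act through distinct receptors. IL-1 family cytokines and TNF are products of activated myeloid cells and of stressed epithelial and tumor cells, and their receptors lead to NF-kB. IL11, LIF and IL6 belong to the family that signals through the shared receptor chain gp130 (IL6ST) to JAK kinases and STAT3. IL24, first described in differentiating melanoma cells, uses receptors of the IL-20 type. IL15 sustains natural killer and memory T cells and is presented to them by IL15RA. TREM1 is an activating receptor of neutrophils and monocytes that depends on the adaptor TYROBP and amplifies inflammatory responses.

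The libraries held 24895998 to 35181733 expected counts, and a floor of 3 counts was worth 0.087 to 0.112 CPM (counts per 1000000, with library sizes scaled by the TMM method). Such floors cover counting error only. STAG2 was at 66.5, 34.8 and 28.8 CPM in WT and at 16.0, 7.31 and 6.70 CPM in KD, which is −2.12 ± 0.43 as a log2 fold change with its standard error (adjusted p = 0.0342, edgeR quasi-likelihood). With WT replicate 2 or 3 or KD replicate 2 or 3 left out, the adjusted p of STAG2 from edgeR was 0.0652 to 0.168. WT replicate 1 had more genes above 0 (20646) than the other libraries (16028 to 17995) and a higher share of mitochondrial counts (5.07% against 2.12% to 2.94%). All 8 melanocyte lineage markers (MITF, PMEL, MLANA, TYR, TYRP1, DCT, SOX10 and S100B) were counted in every library. Their sum was 1861 to 6311 CPM in WT and 1195 to 2606 CPM in KD. Of these markers S100B fell (edgeR, adjusted p = 0.00949, and up to 0.0865 with 1 library left out). With the replicate number as a block, PMEL, MLANA, TYRP1, DCT and SOX10 were lower as well (edgeR, adjusted p from 0.00109 to 0.0275). Of all tested genes, 0.839% were lower without the block and 4.42% with it. TYR was the only marker of the list with a higher mean in KD, at 216 ± 142 CPM (WT) against 276 ± 79 CPM (KD, SD, 3 libraries each). It did not pass (edgeR, adjusted p = 0.792, and 0.129 with the block). The labels do not say whether libraries came from separate cultures, and the study's legends call its replicates biologically independent, so p-values measure the spread between such samples.

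Of the 10 genes, 3 (IL11, IL24 and TREM1) were higher in KD by edgeR (quasi-likelihood test, adjusted p under 0.05), where 1.75% of the 15605 genes tested were higher. None was lower by edgeR, against 0.839% of all tested genes. None was lower at an unadjusted p under 0.05 from edgeR, against 1090 of all 15605 tested genes. DESeq2 and limma-voom also called 0 lower, against 421 and 137 of the same 15605 genes. With 7 of the 10 genes tested, a count of 0 lower is near these shares. A further 4 genes (IL1B, LIF, TNF and IL15) were tested and did not pass, and 3 (IL1A, IL6 and IL18) were not tested because they had too few counts. In bulk libraries, a difference in the number of cells that make a transcript and one in the amount per cell cannot be told apart. TREM1 entered the test only through its KD libraries. Same-numbered KD and WT libraries deviated together, and so, less strongly, did those numbered 2 with those numbered 3. Deviations from a condition's mean cancel within each gene, so part of this pattern follows from the centering where libraries numbered 1 stand apart. With the replicate number as a block IL1B and LIF passed as well, which made 5 genes higher, where 5.1% of all tested genes were higher in that fit and 9.52% changed in either direction. DESeq2 also called 5 higher (3.13% of its genes), limma-voom called 4 (1.76%, with IL1B and without LIF), and edgeR without the libraries numbered 1 called 4 (2.88%, with LIF and without IL1B). In IL1B, IL11, LIF, IL24 and TREM1 every KD library lay above every WT library, as it did in 11.8% of all tested genes. An exact permutation test on a single gene gives a two-sided p of 0.1 in such a case, the smallest that 3 libraries against 3 allow.

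**Figure D1:**
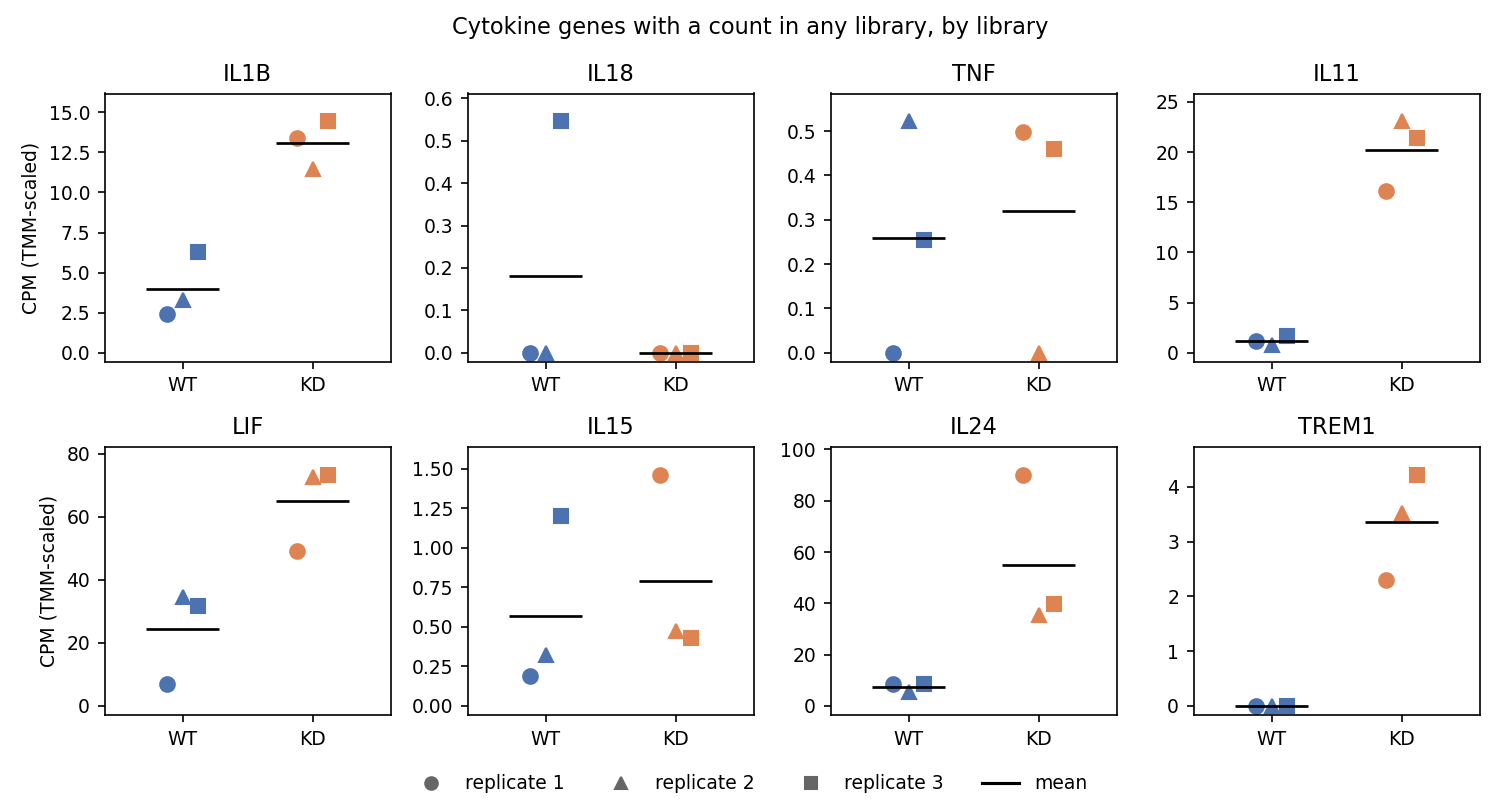
Levels in CPM (linear axes, each panel with its own range) of the 8 cytokine genes with a count in any library, with 1 point per library (marker shape gives the replicate number) and a line at the mean of each condition. KD points stand above all WT points for IL1B, IL11, LIF, IL24 and TREM1, while TNF, IL15 and IL18 overlap below 1.47 CPM.

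The promoters of IL11, IL24 and TREM1, which were higher in KD, and of IL1B, which passed with the block, are shown to let their sequences be compared. RefSeq promoters on GRCh38.p14, from 250 bases before to 50 bases after the start of transcription, matched 7 of the 10 genes, and there was no entry for LIF, IL15 or IL18. Capitals mark matches to any of 5 motifs searched on both strands, namely the interferon-stimulated response element core (TTTCNNTTTC), the AP-1 site (TGANTCA), the TATA box (TATAAA), the cAMP response element core (TGACG) and the kappa-B motif of NF-kB. The IL11 promoter is at chr19:55370414-55370713 on the minus strand, that of IL24 at chr1:206897193-206897492 on the plus strand, that of IL1B at chr2:112836730-112837029 on the minus strand, and that of TREM1 at chr6:41286633-41286932 on the minus strand.
IL11: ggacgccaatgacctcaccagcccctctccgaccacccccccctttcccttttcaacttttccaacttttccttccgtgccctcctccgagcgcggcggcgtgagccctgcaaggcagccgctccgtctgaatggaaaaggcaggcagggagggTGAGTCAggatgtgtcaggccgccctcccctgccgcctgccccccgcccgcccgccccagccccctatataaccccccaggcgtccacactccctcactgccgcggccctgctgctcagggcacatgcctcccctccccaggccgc
IL24: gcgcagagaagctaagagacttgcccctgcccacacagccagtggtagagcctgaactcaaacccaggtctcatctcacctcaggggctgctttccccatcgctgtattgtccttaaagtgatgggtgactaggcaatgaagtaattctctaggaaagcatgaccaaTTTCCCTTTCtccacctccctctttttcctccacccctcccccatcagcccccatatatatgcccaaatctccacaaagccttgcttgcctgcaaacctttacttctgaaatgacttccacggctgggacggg
IL1B: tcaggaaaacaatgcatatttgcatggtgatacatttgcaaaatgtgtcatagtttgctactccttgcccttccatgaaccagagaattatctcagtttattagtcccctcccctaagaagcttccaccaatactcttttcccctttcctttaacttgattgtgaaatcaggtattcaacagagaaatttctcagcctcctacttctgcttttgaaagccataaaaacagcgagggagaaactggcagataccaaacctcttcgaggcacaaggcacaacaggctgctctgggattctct
TREM1: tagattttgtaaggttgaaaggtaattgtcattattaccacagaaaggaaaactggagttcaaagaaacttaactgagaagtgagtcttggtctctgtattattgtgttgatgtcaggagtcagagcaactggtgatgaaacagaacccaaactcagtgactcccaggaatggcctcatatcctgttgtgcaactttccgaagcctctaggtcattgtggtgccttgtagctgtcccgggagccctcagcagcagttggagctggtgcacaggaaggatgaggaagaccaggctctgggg
IL11 had 1 match, an AP-1 site that begins 96 bases before the start, a motif found in 7.71% of the 35116 promoters in the table. IL24 had 1 match, to the interferon-stimulated response element core, 83 bases before the start. That core was found in 3.57% of all promoters. The IL1B and TREM1 windows held none of the 5 motifs in the letters searched. Among the genes that were at 0, IL6 had a kappa-B match 73 bases before its start (5.91% of all promoters hold one) and cAMP response element cores at 215 and 162 bases before it (24.6% of all promoters). IL1A has 2 annotated starts, whose windows overlap and hold the same 2 AP-1 matches and the same cAMP response element core. The window of 1 start also had a TATA box match, 239 bases before that start. TNF had a TATA box 29 bases before its start (11.5% of all promoters). A match of letters is a description and does not show that a factor binds there.

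Among the cytokines that signal through gp130, IL11 had the largest change of the 10 genes that could be given as a ratio. IL11 (ENSG00000095752, chromosome 19 of GRCh37, 55875750 to 55881831, minus strand) is a cytokine of bone, stroma and fibrosis. It was at 1.16, 0.725 and 1.64 CPM across the WT libraries, against 16.1, 23.1 and 21.4 CPM across the KD libraries. The lowest KD library was 9.84 times the highest WT library. The means were 1.17 ± 0.457 CPM (WT) against 20.2 ± 3.63 CPM (KD, SD, 3 libraries each), with a log2 fold change of 4.11 ± 0.41 (edgeR, adjusted p = 0.000741). Within replicates 1, 2 and 3 the KD library was 14, 31.8 and 13.1 times its WT counterpart. Leaving out any library kept the log2 fold change of IL11 between 3.85 and 4.42 and its adjusted p at or under 0.00737. Some IL11 counts were not whole, as RSEM divides reads that match several genes, but no other annotated gene overlaps IL11.

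LIF (ENSG00000128342, chromosome 22, 30636442 to 30642748, minus strand), which maintains stem cells and acts in inflammation and cachexia, had the highest mean CPM of the 10 genes in WT, although IL24 was above it in WT replicate 1. It was at 6.93, 34.6 and 31.6 CPM across the WT libraries, against 49.1, 72.7 and 73.4 CPM across the KD libraries. All KD libraries were higher than all WT libraries, and replicate 1 was the lowest of its condition in both. The means were 24.4 ± 15.2 CPM (WT) against 65.1 ± 13.8 CPM (KD, SD, 3 libraries each). The log2 fold change of 1.41 ± 0.49 did not pass without the block (adjusted p = 0.196 from edgeR), and that of 1.67 ± 0.31 passed with it (adjusted p = 0.008 from edgeR). The KD library was 7.09, 2.10 and 2.32 times its WT counterpart in replicates 1 to 3, so the ratio was widest where the WT library stood apart. Without both libraries numbered 1 the log2 fold change was 1.15 (adjusted p = 0.0113 from edgeR). LIF-AS1 and LIF-AS2, on the opposite strand of LIF, had at most 16 counts in a library. IL6 (ENSG00000136244, chromosome 7, 22765503 to 22771621, plus strand), the central cytokine of the acute phase response, had 0 counts in all 6 libraries, which allows up to 0.112 CPM in the shallowest of them.

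In the IL-1 family, IL1B was the member with counts in every library. IL1B (ENSG00000125538, chromosome 2, 113587328 to 113594393, minus strand) encodes the precursor that caspase-1 cleaves into secreted IL-1β. It was at 2.38, 3.28 and 6.26 CPM across the WT libraries, against 13.4, 11.4 and 14.4 CPM across the KD libraries. The groups did not overlap, and the lowest KD library was 1.83 times the highest WT library. The means were 3.97 ± 2.03 CPM (WT) against 13.1 ± 1.53 CPM (KD, SD, 3 libraries each). The log2 fold change of 1.72 ± 0.42 missed the threshold without the block (adjusted p = 0.0678 from edgeR), and that of 1.82 ± 0.35 passed with it (adjusted p = 0.00936 from edgeR). DESeq2 and limma-voom also placed IL1B past the threshold (adjusted p = 0.00619 and 0.0429). IL1A (ENSG00000115008), which lies beside IL1B on chromosome 2 at 113531502 to 113542070 and encodes the alarmin IL-1α, had 0 counts in all 6 libraries. IL18 (ENSG00000150782, chromosome 11, 112013976 to 112034819, minus strand), an inducer of interferon gamma, had 15 counts in WT replicate 3 and 0 in the other 5 libraries.

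TNF (ENSG00000232810, chromosome 6, 31543342 to 31546113, plus strand), a master cytokine of inflammation, was near the floor. It had 0, 18 and 7 counts across the WT libraries, against 16, 0 and 15 counts across the KD libraries, or 0.259 ± 0.261 CPM (WT) against 0.319 ± 0.277 CPM (KD, SD, 3 libraries each). Both conditions held a library at 0, and the log2 fold change of 0.29 had a standard error of 1.93 (adjusted p = 0.972 from edgeR). IL15 (ENSG00000164136, chromosome 4, 142557736 to 142655140, plus strand) had 0.186, 0.319 and 1.20 CPM across the WT libraries, against 1.46, 0.474 and 0.428 CPM across the KD libraries. The highest IL15 library was KD replicate 1 and the conditions overlapped, with a log2 fold change of 0.47 ± 1.29 (edgeR, adjusted p = 0.923). Low counts were lumpy in these libraries: for genes of 10 to 20 counts, replicates 2 and 3 had a variance that was on average 16.1 times the mean in WT, and 12.4 times in KD. A change in TNF, IL15 or IL18 was therefore not detectable at these counts and this spread unless it was large.

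IL24 (ENSG00000162892, chromosome 1, 207070788 to 207077484, plus strand) encodes a cytokine of the IL-10 superfamily known as melanoma differentiation-associated. It was at 8.46, 5.4 and 8.66 CPM across the WT libraries, against 90.2, 35.4 and 39.7 CPM across the KD libraries. KD replicate 1 was the highest library, and all KD libraries were above all WT libraries. The lowest KD library was 4.09 times the highest WT library. The means were 7.51 ± 1.83 CPM (WT) against 55.1 ± 30.5 CPM (KD, SD, 3 libraries each), and the log2 fold change was 2.88 ± 0.40 (adjusted p = 0.00539 from edgeR). Without KD replicate 1 it was 2.33, and without both libraries numbered 1 it was 2.43 (adjusted p = 0.00704 and 0.00395 from edgeR). FCMR, listed in the table as FAIM3, overlaps the end of IL24 on the opposite strand and had 516 to 785 counts per library with a log2 fold change of −0.01 (edgeR, adjusted p = 0.992). The strand setting of the counting is not given in the sources used here.

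TREM1 (ENSG00000124731, chromosome 6, 41235664 to 41254420, minus strand) had 0 counts in each WT library and 74, 104 and 138 counts across the KD libraries. These are 2.30, 3.52 and 4.22 CPM in KD, with a mean of 3.35 ± 0.971 CPM (SD, n = 3). The mean level in KD was 32.6 times a floor of 3 counts per WT library, which covers counting error only. TREM1 was tested only on account of its KD counts. The adjusted p from edgeR was 0.0128, and it reached 0.0796 without KD replicate 2 and 0.0993 without KD replicate 3. TYROBP, the adaptor on which the TREM1 protein depends at the cell surface, had 0 counts in all 6 libraries.

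To set levels of different genes side by side, mean CPM was divided by the length in kilobases of the Ensembl canonical transcript. In KD the order by CPM per kilobase was IL24 (27.9 ± 15.4), LIF (16.8 ± 3.57), IL1B (8.69 ± 1.01), IL11 (8.5 ± 1.53), TREM1 (1.03 ± 0.299), IL15 (0.391 ± 0.290) and TNF (0.190 ± 0.165), with SD over 3 libraries. IL24 and LIF were within 1 SD of IL24 from each other, and IL1B and IL11 differed by less than their spread, as did IL15 and TNF. In WT the order began with LIF (6.30 ± 3.93), IL24 (3.80 ± 0.926) and IL1B (2.64 ± 1.35), whose SDs overlapped from neighbour to neighbour, and IL11 (0.493 ± 0.192 CPM per kilobase) came after them. On this scale IL11 was below IL1B in WT and level with it in KD.

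The receptors of these cytokines were read from a list of 18 genes, of which 11 were tested. No receptor gene passed by edgeR without the block in either direction. At an unadjusted p under 0.05 from edgeR, 3 were higher and 2 lower, DESeq2 called 1 higher and 2 lower, and limma-voom called 0 higher and 1 lower. Of all 15605 genes tested by edgeR, 1212 were higher and 1090 lower at an unadjusted p under 0.05. Of the same genes DESeq2 called 533 higher and 421 lower, and limma-voom 275 and 137. These numbers stand beside the lists below as well. With the replicate block 1 was higher (TNFRSF1B) and 1 lower (IL6ST), where 5.1% of all tested genes were higher and 4.42% lower. On the log2 scale, the median change of the tested receptor genes was 0.23, beside −0.03 over all tested genes.

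Of the receptor chains for IL6, IL11 and LIF, IL6ST, the gp130 chain itself, was at 87.4, 53.6 and 51.4 CPM across the WT libraries, against 35.0, 24.9 and 25.0 CPM across the KD libraries. Its groups did not overlap, and 10.5% of all tested genes had every KD library below every WT library. The log2 fold change of IL6ST, −1.18 ± 0.27, lay just short of the threshold (adjusted p = 0.0528 from edgeR) and passed with the block (adjusted p = 0.00214). IL6R, the binding chain for IL6, was at 38.9 ± 18.8 CPM (WT) against 17.1 ± 4.19 CPM (KD, SD, 3 libraries each, adjusted p = 0.142 from edgeR), also without overlap. LIFR, the partner of gp130 for LIF, was at 11.7 ± 3.39 CPM (WT) against 5.99 ± 3.05 CPM (KD, SD, 3 libraries each, adjusted p = 0.363 from edgeR). IL11RA, the binding chain for IL11, was near 1 CPM in both conditions (1.14 ± 0.496 and 0.902 ± 0.675 CPM, adjusted p = 0.94 from edgeR).

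Of the receptors for TNF, TNFRSF1B, the form that is regulated between cell types, was at 1.56, 7.83 and 5.35 CPM across the WT libraries, against 19.5, 18.1 and 12.9 CPM across the KD libraries. The groups did not overlap (KD above WT, as in 11.8% of all tested genes), with an adjusted p of 0.13 without the block and 0.0253 with it (edgeR). TNFRSF1A, the form found on most cells, was at 194 ± 68.5 CPM (WT) against 228 ± 27.2 CPM (KD, SD, 3 libraries each, adjusted p = 0.797 from edgeR). For IL-1, the accessory chain IL1RAP was at 39.2 ± 18.6 CPM (WT) against 25.5 ± 9.58 CPM (KD, SD, 3 libraries each, adjusted p = 0.512 from edgeR), and the signalling receptor IL1R1 stayed under 1.25 CPM in every library. The decoy IL1R2 had at most 1 count in a library, and of the IL-18 receptor chains IL18RAP was at 0 throughout and IL18R1 had 25 counts in KD replicate 1 and at most 1 elsewhere. IL15RA was at 3.38 ± 1.78 CPM (WT) against 8.11 ± 3.45 CPM (KD, SD, 3 libraries each, adjusted p = 0.309 from edgeR), with no overlap between the conditions (KD above WT, as in 11.8% of all tested genes). Of its partner chains, IL2RB and IL2RG had at most 7 counts in a library. Among the chains that can bind IL24, IL20RB was at 1.38, 0.203 and 0.619 CPM across the WT libraries, against 0.685, 7.55 and 4.96 CPM across the KD libraries, with KD replicate 1 inside the WT range (adjusted p = 0.251 from edgeR). IL22RA1 was at 1.75 ± 1.29 CPM (WT) against 2.39 ± 0.356 CPM (KD, SD, 3 libraries each, adjusted p = 0.86 from edgeR), and IL20RA was at 0 in all libraries.

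**Figure D2:**
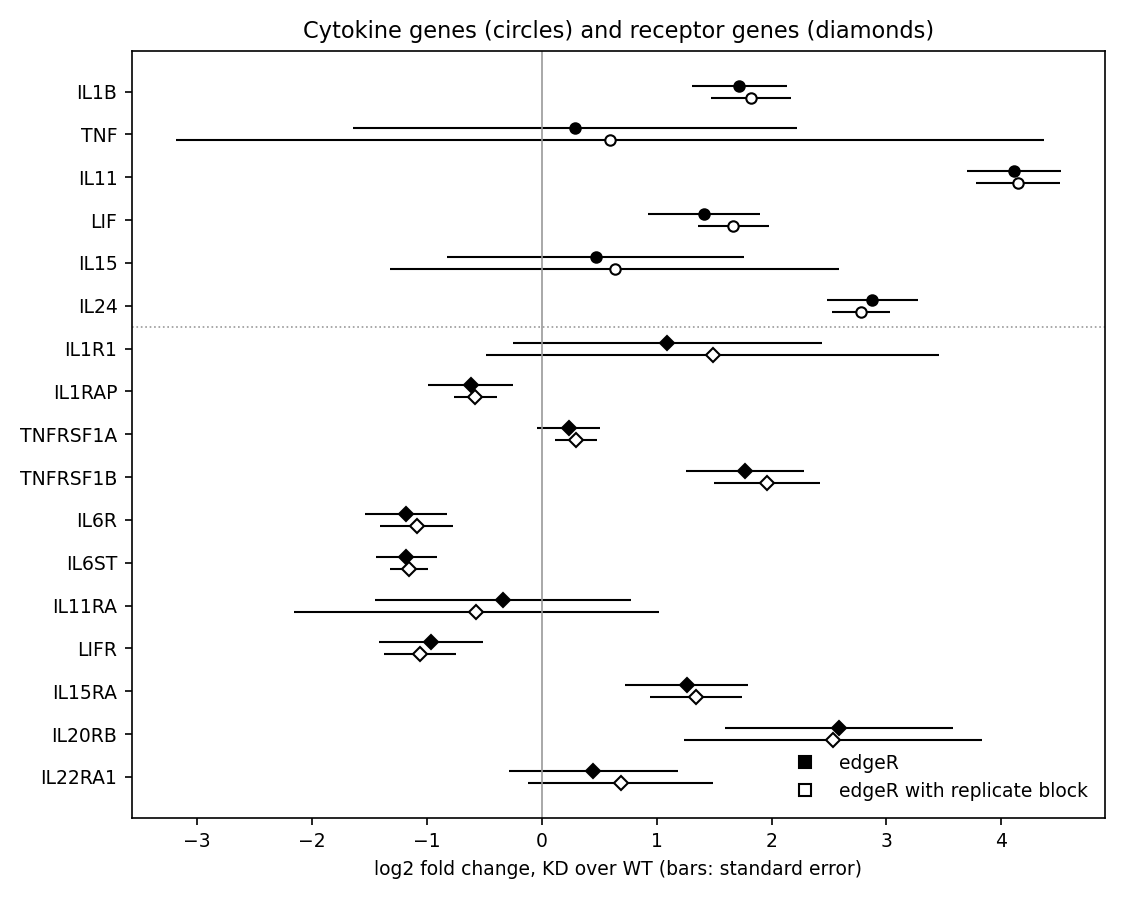
Log2 fold change of KD over WT with its standard error for the tested cytokine genes except TREM1 (circles) and the tested receptor genes (diamonds), from edgeR without (filled) and with (open) the replicate block. IL11 and IL24 stand farthest to the right, the bars of TNF and IL15 cross 0, and the receptor genes lie on both sides of 0, with 5 of 11 (IL1RAP, IL6R, IL6ST, IL11RA and LIFR) to the left.

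The genes that process, release or restrain IL-1 family cytokines formed a list of 19, of which 15 were tested. One, CASP4, was higher and none was lower by edgeR. It encodes the caspase that senses cytosolic lipopolysaccharide and cleaves gasdermin D, and it rose from 28.1 ± 2.83 to 64.7 ± 5.66 CPM (SD, 3 libraries each, log2 fold change 1.20 ± 0.19, adjusted p = 0.0125 from edgeR, and up to 0.0849 with 1 library left out). At an unadjusted p under 0.05 from edgeR, 6 genes of the list were higher and 1 lower (1212 and 1090 of all 15605 tested genes). DESeq2 called 2 higher and 1 lower, and limma-voom 1 and 0. With the block 3 were higher and 1 lower (5.1% and 4.42% of all tested genes), namely CASP4, NLRP3, CAPN2 (edgeR, adjusted p = 0.0486 with the block) and PYCARD, and the following values were picked out after they had been seen. The inflammasome sensor NLRP3 was at 1.18 ± 0.952 CPM (WT) against 5.64 ± 1.22 CPM (KD, SD, 3 libraries each, adjusted p = 0.207 from edgeR and 0.0446 with the block). PYCARD, the adaptor that joins such sensors to caspase-1, was at 14.8 ± 5.42 CPM (WT) against 6.06 ± 2.12 CPM (KD, SD, 3 libraries each, adjusted p = 0.143 from edgeR and 0.0288 with the block). CASP1 itself, which cleaves pro-IL-1β, was at 18.3 ± 9.2 CPM (WT) against 28.8 ± 9.97 CPM (KD) with overlap (SD, 3 libraries each, adjusted p = 0.496 from edgeR). IL1RN, the receptor antagonist of IL-1, had 0 counts in each WT library and 49, 15 and 26 across the KD libraries, and did not pass (adjusted p = 0.127 from edgeR and 0.171 with the block). It entered the test only through its KD libraries, and it is among the 6 genes that were higher at an unadjusted p under 0.05. The median of the tested genes of this list, IL1RN included, was 0.50 on the log2 scale.

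Of 27 genes that carry the signals onward, 26 were tested and 0 passed by edgeR. At an unadjusted p under 0.05 from edgeR, 4 were higher and 1 lower (1212 and 1090 of all 15605 tested genes). DESeq2 called 2 higher and 0 lower, limma-voom called 0, and the block gave 3 higher and 0 lower (5.1% and 4.42% of all tested genes). These 3, also chosen after their values were seen, were MYD88, the adaptor of IL-1 receptors, RIPK1, the kinase of TNF receptor complexes, and JAK3, a kinase bound to the common gamma chain. With the block, MYD88 had an adjusted p of 0.0133 and RIPK1 one of 0.0202 (edgeR), against 0.163 and 0.08 without it. JAK3 was at 3.69, 5.19 and 2.04 CPM across the WT libraries, against 10.2, 15.4 and 11.1 CPM across the KD libraries (adjusted p = 0.069 without and 0.00915 with the block, edgeR). STAT3, which gp130 receptors activate, had a log2 fold change of 0.08 (edgeR, adjusted p = 0.926), and JAK1 had one of −0.10 (adjusted p = 0.877 from edgeR). The median over the list was 0.24 on the log2 scale. Among 10 genes that control the decay of cytokine mRNAs, all were tested and 0 passed by edgeR. At an unadjusted p under 0.05 from edgeR, 1 was higher and 1 lower (1212 and 1090 of all 15605 tested genes). DESeq2, limma-voom and the block (5.1% of all tested genes higher) each called 1 higher and 0 lower, which was ZC3H12A, a nuclease that destroys IL6 mRNA. ZC3H12A was at 5.45 ± 2.23 CPM (WT) against 16.6 ± 2.4 CPM (KD, SD, 3 libraries each, log2 fold change 1.6, adjusted p = 0.0515 from edgeR and 0.0121 with the block). ZFP36, which promotes the decay of TNF mRNA, had a log2 fold change of 0.19 (edgeR, adjusted p = 0.858), and the median of the list was −0.32.

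Among 44 other cytokine genes, 27 were at 0 in every library and 12 were tested. None passed by edgeR. At an unadjusted p under 0.05 from edgeR, 3 were higher and 1 lower (1212 and 1090 of all 15605 tested genes). DESeq2 called 1 higher and 1 lower, limma-voom called 0, and the block gave 2 higher (EBI3 and CLCF1) and 1 lower (IL17D), against 5.1% and 4.42% of all tested genes. EBI3, a subunit of IL-27 and IL-35, was at 0.708, 2.44 and 3.13 CPM across the WT libraries, against 2.30, 12.9 and 14.2 CPM across the KD libraries, so that KD replicate 1 lay within the WT range (adjusted p = 0.177 from edgeR and 0.00788 with the block). CLCF1, a further ligand of the gp130 family, was at 1.86 ± 1.79 CPM (WT) against 7.43 ± 1.64 CPM (KD, SD, 3 libraries each, adjusted p = 0.216 from edgeR and 0.0271 with the block). IL17D was at 13.6 ± 2.33 CPM (WT) against 5.73 ± 0.809 CPM (KD, SD, 3 libraries each, adjusted p = 0.0769 from edgeR and 0.0208 with the block). The gp130 ligand OSM, which lies next to LIF on chromosome 22, was at 0 in all libraries. The same held for LTA, the neighbour of TNF, and for IL19 and IL20, the neighbours of IL24.

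**Figure D3:**
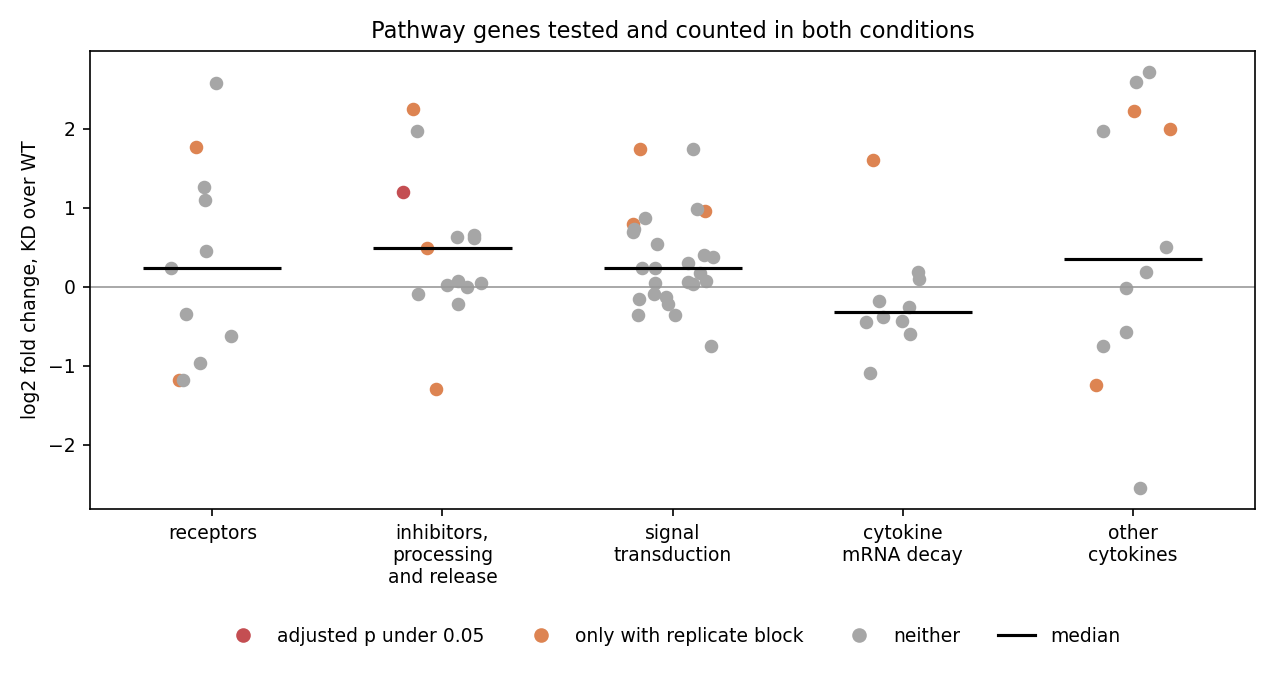
Log2 fold change of KD over WT for the genes of the 5 lists that were tested and had counts in both conditions, 1 point per gene, with a line at the median of all tested genes of the list. One gene (CASP4) passed without the replicate block, and the points that passed with the block lie on both sides of 0.

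The genes around the cytokine loci were compared as well, since the series is about genome folding. Within 250 kb of the start of a cytokine gene, 87 other genes were tested, and edgeR called 4 of them higher and 1 lower, where 2.59% of all tested genes changed in either direction. With the replicate block 10 were higher and 2 lower, where 5.1% and 4.42% of all tested genes were. The genes that passed only with the block were named after their values were seen. Around IL11, PTPRH, a receptor-type tyrosine phosphatase that begins 161 kb downstream, rose from 16.1 ± 1.05 to 49.3 ± 7.26 CPM (SD, 3 libraries each, adjusted p = 0.00431 from edgeR). BRSK1, a kinase that begins 88.4 kb downstream of IL11, rose from 5.93 ± 1.39 to 17.1 ± 1.29 CPM (SD, 3 libraries each, adjusted p = 0.0327 from edgeR, and 0.184 at most with 1 library left out). The other 23 tested genes around IL11 did not pass without the block, and with it UBE2S, 37.3 kb upstream, was lower (log2 fold change −0.79, edgeR adjusted p = 0.00478). Around TNF, whose own level did not separate the conditions, HLA-B rose from 220 ± 75.9 to 1620 ± 524 CPM (SD, 3 libraries each, adjusted p = 0.00227 from edgeR). HCP5, a non-coding gene of the same region, had 2, 2 and 0 counts across the WT libraries, against 598, 140 and 297 across the KD libraries (adjusted p = 0.00164 from edgeR). It entered the test only through its KD libraries. Reads of HLA-B are shared among related HLA genes, so that its counts depend on how RSEM divided them. Near LIF, RP4-539M6.19 had 11.7, 54.2 and 183 expected counts across the WT libraries, against 0 in each KD library (adjusted p = 0.0487 from edgeR, and up to 0.292 with 1 library left out). It entered the test only through its WT libraries. It overlaps SEC14L2 and MTFP1 on the same strand, so its counts may also depend on how RSEM divided the reads. Near IL24, IL1B and TREM1, whose windows held 7, 3 and 2 tested genes, none passed by edgeR without the block. With it, MAPKAPK2 near IL24 and SLC20A1 near IL1B and IL1A were higher (edgeR, adjusted p = 0.0328 and 0.00454), and so were MICA, MICB, NFKBIL1 and HSPA1A near TNF (edgeR, adjusted p from 0.0157 to 0.043).

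**Figure D4:**
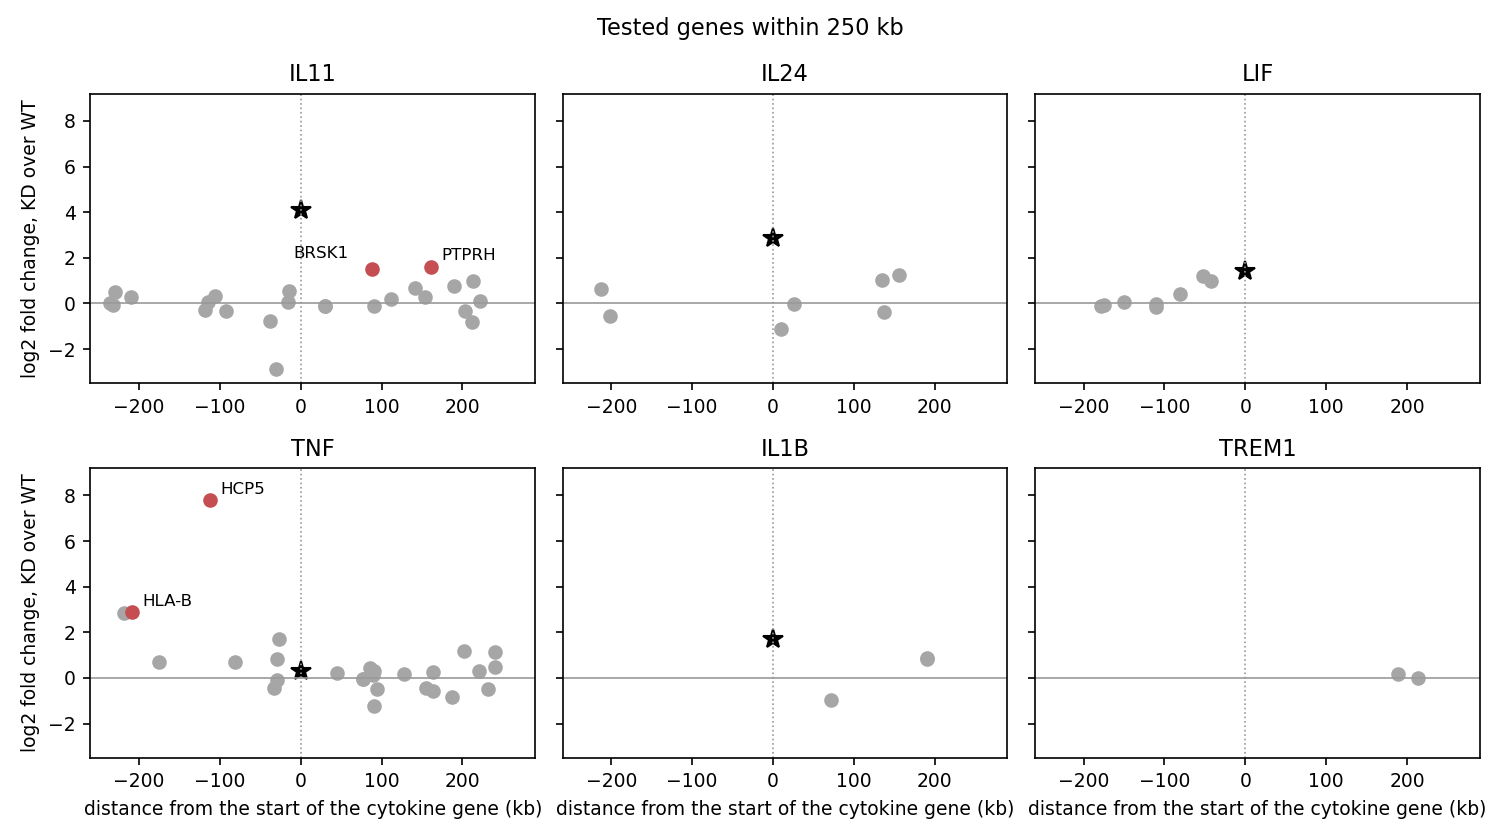
Log2 fold change of KD over WT against the distance in kb from the start of the named cytokine gene (positive values downstream, in the direction of its transcription) for tested genes with counts in both conditions, with the cytokine gene as a star except TREM1, which is at 0 in WT. Red points passed by edgeR without the block, and the value of HCP5 rests on 4 counts in WT.

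Because TREM1, IL1B and TNF are genes of myeloid cells, markers of other cell types were read in the same libraries. Of 12 myeloid markers, 5 (AIF1, FCGR3A, S100A8, S100A9 and CD163) were at 0 in every library, and PTPRC, the marker of all leukocytes, had 16 counts in WT replicate 3 and 0 in the other libraries. The sum of the myeloid list ran from 27.1 to 42.1 CPM in WT and from 91.9 to 128.5 CPM in KD. Most of it was CD68, a lysosomal protein that many cell types make, which rose from 33.5 ± 7.25 to 100.9 ± 21.2 CPM (SD, 3 libraries each, adjusted p = 0.00855 from edgeR). Without CD68 the sum was 1.79 to 3.31 CPM in WT and 3.21 to 4.77 CPM in KD. In LYZ every KD library lay above every WT library (as in 11.8% of all tested genes). LYZ was at 0.733 ± 0.225 CPM (WT) against 2.10 ± 0.123 CPM (KD, SD, 3 libraries each, adjusted p = 0.447 from edgeR). CSF1R and CD14 overlapped, with means of 0.962 and 0.622 CPM in WT against 1.13 and 0.405 CPM in KD. ITGAM and MPO had at most 18 counts in a library. The part of such markers in the cytokine values was not tested. Of 8 lymphoid markers 5 were at 0 (CD3E, CD3D, CD2, MS4A1 and GNLY), and the sum was at most 2.39 CPM. The fibroblast list of 6 genes, none of them at 0, summed to 7.68 to 101.4 CPM in WT and 4.76 to 28.5 CPM in KD, with COL1A1 lower with the block (edgeR, adjusted p = 0.00232), and the keratinocyte list of 5, with KRT1 at 0, to 28.8 to 45.6 CPM in WT and 18 to 27.6 CPM in KD.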

How the data were processed

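M14 libraries were poly(A)-selected, directional and sequenced from 1 end over 50 bases. Alignment by the authors used STAR 2.7.0f with hg19, and the deposited values are RSEM 1.3.0 expected counts per gene, neither scaled nor filtered. The strand setting and the annotation release are not given in the sources used here.

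Expected counts were rounded, filtered by filterByExpr (15605 of 57820 genes kept), scaled by TMM and tested with edgeR 4.0.16 (R 4.3.3, quasi-likelihood test, Benjamini-Hochberg adjustment over all tested genes, threshold 0.05). Standard errors are the log2 fold change divided by the square root of F. Coordinates came from GENCODE v44 lifted to GRCh37, and promoters from RefSeq on GRCh38.p14. Of the gene identifiers, 55538 matched. Alternatives were DESeq2 1.42.0, upper-quartile scaling, limma-voom (limma 3.58.1), other filters, counts not rounded, a replicate block, a window of 100 kb, and libraries left out.

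Log2 CPM deviations from the condition means correlated across 10569 genes at r = 0.573, 0.41 and 0.334 between libraries numbered 1, 2 and 3 (genes are not independent replicates, and the labels name no shared batch). Across numbers, r was 0.268 for WT 2 with KD 3 and 0.205 for WT 3 with KD 2. It was −0.486 to −0.377 where only 1 of the libraries was numbered 1. Deviations from a condition's mean cancel within each gene. Libraries numbered 1 that stood apart would alone raise r among those numbered 2 and 3. They would also make r negative where only 1 of the libraries was numbered 1. The numbers thus set the libraries numbered 1 apart more clearly than they paired replicates 2 and 3. Blocked values are given for named genes whose call they change.

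The genes, lists and windows were chosen with earlier results of these data known. Named were the 10 cytokine genes, STAG2, all receptor genes, and genes of the other lists or of the neighbourhood with an adjusted p under 0.05 (at most 5 a list and 8 neighbours). Other genes were chosen after their values were seen.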

Additional observations from a re-analysis of the deposited data

How the results depend on the processing

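IL11 and IL24 passed the threshold under every alternative tried, and TREM1 under every one that tested it except without KD replicate 2 or KD replicate 3 (at least 10 counts in every library removes TREM1, TNF and IL15). The number of cytokine genes called higher in KD was 3 without the replicate block and 5 with it, and 5 with DESeq2 or with no filter on low counts, and it ran from 2 to 4 with libraries left out. The number called lower was 0 throughout. Over all genes, 404 were called, 991 with DESeq2, 1103 with no filter, 1486 with the replicate block and 121 to 757 with libraries left out. The block changed calls, as the libraries' numbers pair them, only for IL1B and LIF among the cytokine genes. Receptor genes called numbered 0, with 3 by DESeq2, 3 with no filter, 2 with the replicate block, 1 by limma-voom, 1 with at least 10 counts in every library, and 0 to 2 with libraries left out. Processing genes called numbered 1, with 3 by DESeq2, 3 with no filter, 4 with the block and 0 to 1 with libraries left out. Signalling genes called numbered 0, with 2 by DESeq2, 2 with no filter and 3 with the block. Decay genes called numbered 0, with 1 by DESeq2, limma-voom, no filter, the filter of 10 counts and the block. Other cytokines called numbered 0, with 2 by DESeq2, 2 with no filter, 3 with the block and 0 to 1 with libraries left out. Neighbours called numbered 5, with 8 by DESeq2, 3 by limma-voom, 3 with the filter of 10 counts, 12 with the block, 1 within 100 kb and 3 to 7 with libraries left out. The log2 fold change of TNF turned negative when libraries were left out, with a range of −0.74 to 1.3, and so did that of IL15, from −0.74 to 1.62. That of STAG2 kept its direction, from −2.63 to −1.68, with an adjusted p from edgeR of up to 0.168. The causes of these moves were not tested. TNF, IL15, IL18, IL1A and IL6 all stayed under 1.5 CPM, so only a large change in them could have been detected.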
